A study of Mus musculus with 74 samples.

Results

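The genes described here encode interleukin 2 and the chains of its receptor: Il2, Il2ra, Il2rb and Il2rg. They were chosen by gene symbol, and a probe was taken where the array platform's own annotation names it for one of these genes. Of the 4 genes, 3 have such a probe, 1 each, among the 16463 probes of the array. Il2rg, the gene of the common gamma chain, has no probe named for it in the annotation used here and is not analysed further. No filter on low values was applied, so all 3 probes entered every fit.

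Interleukin 2 is secreted by activated T cells and acts on the same or neighbouring lymphocytes. The alpha chain (Il2ra, CD25) raises the affinity for the cytokine but does not signal, while the beta chain (Il2rb, CD122, shared with the interleukin 15 receptor) and the gamma chain carry the signal through the kinases Jak1 and Jak3 to STAT5. In mature T cells Il2 is switched on by calcium and NFAT together with AP-1 and NF-kappaB, and in the thymus the alpha chain also marks early double-negative thymocytes, which carry neither CD4 nor CD8.

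These genes were measured on 74 mouse 2-colour arrays in 11 groups, each array giving a ratio, read as log2, between a test RNA and a partner RNA. In 7 groups both RNAs came from the DO11.10 T cell hybridoma, a fusion line, and the partner was untreated hybridoma cells. The test cells carried HDAC7 DP in the MSCV retrovirus (8 arrays) or the empty MSCV virus (8 arrays), both with PMA/ionomycin for 2.5 h. Other test cells carried HDAC7-VP16 (10 arrays), MEF2D-VP16 (4 arrays), MSCV Nur77 (4 arrays), or the empty MSCV virus without stimulation. The unstimulated empty virus came as a set of 12 arrays and a set of 4 arrays, whose descriptions name no other construct. Here the set of 12 served as control for HDAC7-VP16 and the stimulated cells, and the set of 4 for MEF2D-VP16 and Nur77. HDAC7, a class IIa histone deacetylase, is carried to DNA by MEF2 factors such as MEF2D, VP16 is a viral activation domain, and Nur77 is the orphan nuclear receptor encoded by Nr4a1. PMA and ionomycin replace the signals of the T cell receptor by activating protein kinase C and raising calcium. The other 4 groups, of 6 arrays each, used total thymocytes: DO11.10 T cell receptor transgenic mice were set against mhc -/- mice, and DO11.10 thymocytes 3 h, 6 h or 12 h after injection of antigenic peptide were set against thymocytes of uninjected DO11.10 animals. The labels used here give neither what DP stands for nor which MHC genes the mhc -/- mice lack.

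The hybridoma is 1 line, and the labels do not say whether arrays of a group hold RNA of separate cultures or animals, so p-values measure only how far these arrays spread, and that spread may be technical. In total thymocytes, fewer cells of a type and less RNA per cell cannot be told apart. Ratios carry no level: whether a gene was abundant, and whether the cells expressed their defining markers, cannot be read from them, and ratios of different probes are not compared as levels. Log base 2 is assumed. Positive values were taken as more RNA in the test cells, which is likely, since Nr4a1, the gene carried by the Nur77 virus, read 3.18 to 6.12 on its 4 arrays. The median correlation between arrays of opposite dye orientation was below 0 in HDAC7-VP16 (-0.475) and in the empty-virus sets of 12 (-0.401) and 4 arrays (-0.241). Why these correlations were below 0 was not tested. Nr4a1 read above 0 on all 10 HDAC7-VP16 arrays (1.71 to 3.93), 5 in each orientation. On 2 of the 12 unstimulated empty-virus arrays, replicates 3 and 9, the direction was unsettled, and turning their sign changed no call of a member. The introduced genes were read on their own arrays as a check of the labels: Hdac7 averaged 2.09 with HDAC7 DP (-0.01 to 4.81) and 0.55 with HDAC7-VP16 (-0.15 to 1.19), while Mef2d averaged -0.01 with MEF2D-VP16 (-0.25 to 0.20). Hdac7 was also high on the MEF2D-VP16 arrays, at 1.36 (1.17 to 1.58). Whether these probes lie in the introduced sequence is not known here. On 1 HDAC7-VP16 array, replicate 1, the title names HDAC7-VP16 while the source name gives the empty virus. It was kept by its title, and the HDAC7-VP16 results are also given without it. In the thymocyte genotype comparison the ratios likely run as DO11.10 over mhc -/-, for reasons given there.

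The 3 measured genes lie on different chromosomes in the mouse build GRCm38.p6. Il2 spans chr3:37120713-37125954, Il2ra spans chr2:11642792-11693194 and Il2rb spans chr15:78479256-78511621. The 250 bases before the annotated start of Il2 and Il2ra are shown because NFAT, which ionomycin activates through calcium, is the classic regulator of Il2, and the results below differ between these genes under that stimulus. The window of Il2rb was not among the promoter sequences used here, so it is not shown. Capitals mark the NFAT core GGAAA on either strand. The sequences are from RefSeq on GRCm38.p6, at chr3:37125955-37126204 on the minus strand for Il2 and chr2:11642542-11642791 on the plus strand for Il2ra.
Il2 promoter: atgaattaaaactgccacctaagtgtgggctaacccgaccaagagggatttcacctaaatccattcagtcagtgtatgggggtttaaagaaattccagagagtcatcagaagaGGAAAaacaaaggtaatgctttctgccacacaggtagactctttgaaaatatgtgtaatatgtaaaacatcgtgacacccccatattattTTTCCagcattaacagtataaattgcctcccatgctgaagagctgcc
Il2ra promoter: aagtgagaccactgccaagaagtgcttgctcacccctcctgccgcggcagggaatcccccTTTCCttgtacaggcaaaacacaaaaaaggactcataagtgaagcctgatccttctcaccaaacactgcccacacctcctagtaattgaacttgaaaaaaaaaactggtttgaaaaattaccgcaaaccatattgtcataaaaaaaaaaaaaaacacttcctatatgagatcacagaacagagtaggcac
The Il2 window holds 2 NFAT cores, at positions -137 to -133 on the gene's strand and -47 to -43 on the other strand, counted from the gene start, and the Il2ra window holds 1, at -190 to -186 on the other strand. Of 32851 mouse promoter windows of this length, 55.6% hold at least 1, so a match is common. On both strands, neither window holds the AP-1 motif TGANTCA (6.75% of windows), the STAT motif TTCNNNGAA (7.02%), the Nur77 motif AAAGGTCA (1.34%), the octamer ATGCAAAT (1.6%) or the MEF2 motif (2.92%). Overlapping matches of different motifs were allowed. Letters that match are a description of the window, not evidence of binding.

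**Figure D1:**
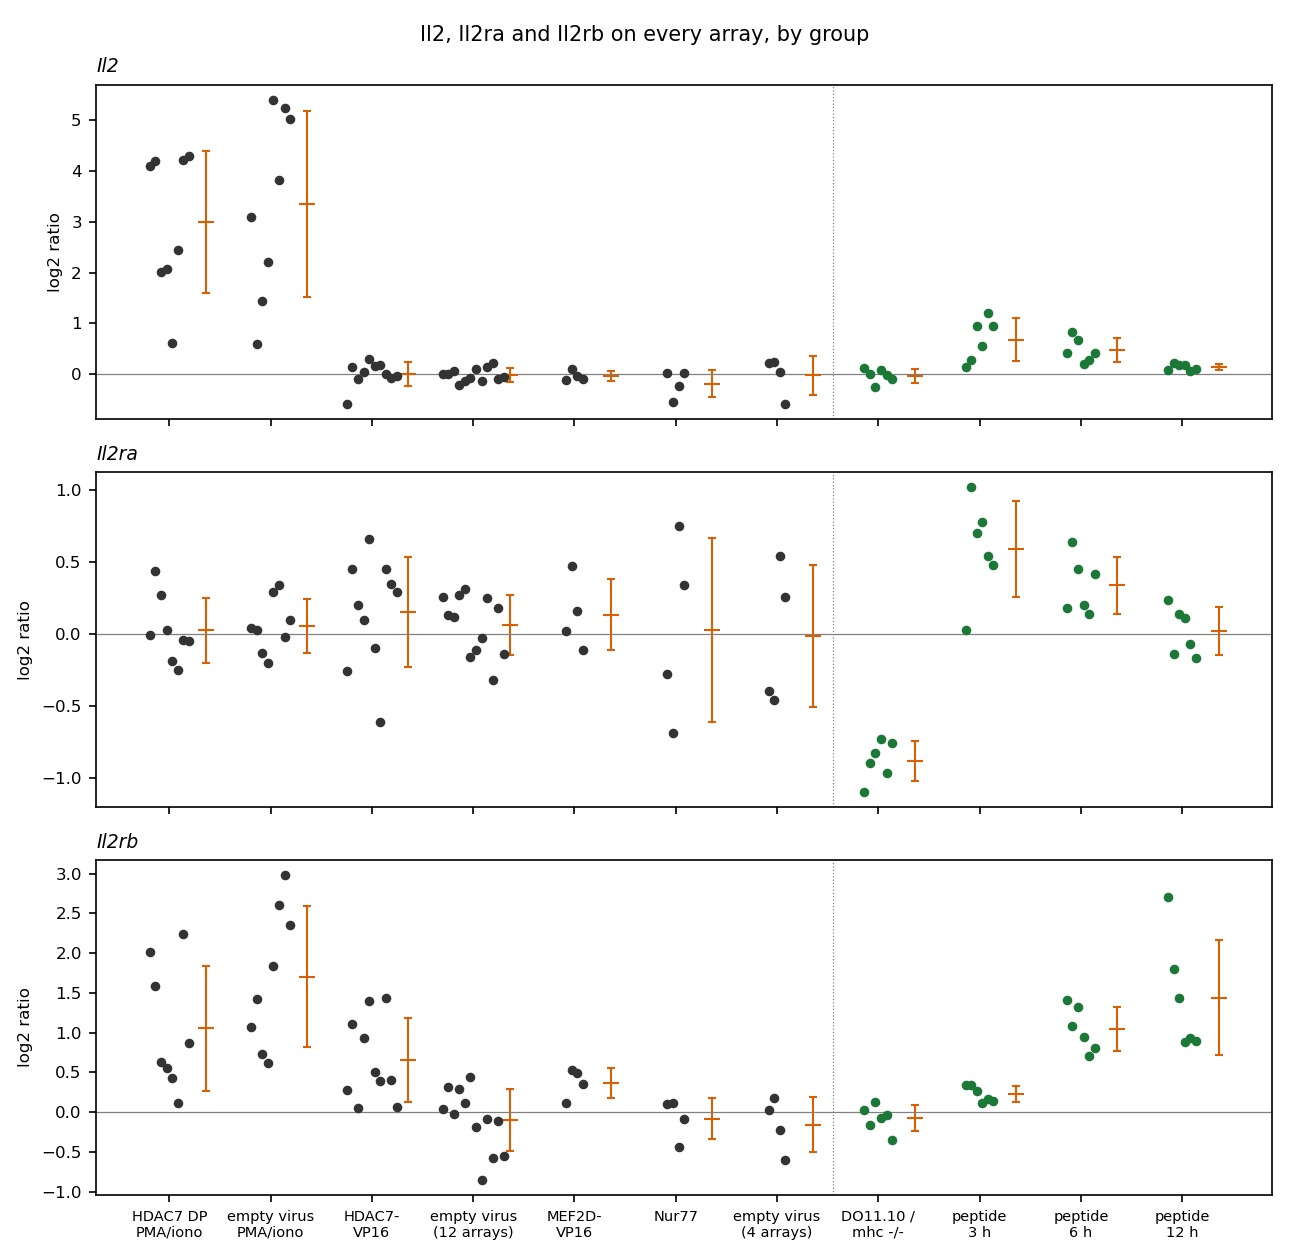
Log2 ratio of Il2, Il2ra and Il2rb (vertical axes) on every array, by group (horizontal axis). Points are arrays and the bar beside them is the mean with 1 SD. Il2 stood far above 0 in both PMA/ionomycin groups, Il2ra was below 0 on all 6 arrays of DO11.10 over mhc -/- thymocytes, and Il2rb was raised in both PMA/ionomycin groups and 6 h and 12 h after peptide.

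PMA/ionomycin raised the ligand and the beta chain of its receptor in empty-virus hybridoma cells, and no difference in the alpha chain was detected. Il2 rose 10.3-fold over unstimulated empty-virus cells and Il2rb rose 3.49-fold, while Il2ra differed by -0.01 on the log2 scale (95% interval -0.18 to 0.17). Il2 lay at 0.60, 3.46 and 5.40 (lowest, median and highest log2 ratio over untreated cells) on the 8 stimulated empty-virus arrays, against -0.21, -0.03 and 0.23 on the 12 unstimulated ones. The groups did not overlap, and the spread of the stimulated arrays (SD 1.83) was far wider than that of the unstimulated ones (SD 0.13). The difference was 3.37 (SE 0.50, adjusted p = 8.8e-05), with 8 of 8 stimulated arrays above untreated cells.

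Il2rb lay at 0.62, 1.64 and 2.98 on the stimulated empty-virus arrays, against -0.85, -0.05 and 0.44 on the unstimulated ones. Here too the groups did not overlap, and the difference was 1.80 (SE 0.26, adjusted p = 7.71e-05), again with 8 of 8 arrays above 0. Il2ra lay at -0.20, 0.04 and 0.34 on the stimulated arrays, against -0.32, 0.12 and 0.31 on the unstimulated ones, and its groups overlapped almost completely (adjusted p = 0.979). Over all probes 12.5% were called in this comparison at a Benjamini-Hochberg adjusted p under 0.05, against 2 of the 3 members. By size of change Il2 ranked 9 and Il2rb ranked 71 of the 16463 probes.

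Stimulated HDAC7 DP cells gave the same calls against the same 12 unstimulated empty-virus arrays, which both comparisons share. No unstimulated HDAC7 DP arrays were analysed here, so in this comparison construct and stimulus cannot be told apart. Il2 lay at 0.62, 3.27 and 4.29 with HDAC7 DP and PMA/ionomycin, above all 12 unstimulated arrays. It rose 8.04-fold (3.01 on the log2 scale with SE 0.38, adjusted p = 9.07e-06), and 8 of 8 arrays lay above 0. Il2rb lay at 0.12, 0.75 and 2.24 and rose 2.22-fold (1.15, SE 0.21, adjusted p = 0.000665, 8 of 8 arrays), although its lowest arrays overlapped the unstimulated range. Il2ra lay at -0.25, -0.02 and 0.44 and differed by -0.03 (interval -0.24 to 0.17, adjusted p = 0.899). Of all probes 13.2% were called, against 2 of the 3 members.

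Between the stimulated groups, HDAC7 DP against the empty virus, 0 of the 3 members were called, against 1.65% of all probes (limma, 1958 probes at an unadjusted p under 0.05, none of them a member). Il2 differed by -0.36 (SE 0.76, interval -1.97 to 1.25, adjusted p = 0.903), Il2ra by -0.03 (SE 0.10, interval -0.24 to 0.19) and Il2rb by -0.65 (SE 0.38, interval -1.47 to 0.16, adjusted p = 0.567). The intervals for Il2 and Il2rb are wide, and a change of more than 2-fold in Il2 in either direction lies inside its interval.

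The spread of Il2 and Il2rb followed the slide sets. The titles number the stimulated slides 17-18 and 19-20 in HDAC7 DP cells, against 13-14 and 15-16 in empty-virus cells, each set with 4 arrays that cover both dye orientations and both slide series (14 and 15). In HDAC7 DP cells Il2 read 4.10, 4.19, 4.21 and 4.29 on set 17-18, and 2.02, 2.08, 0.62 and 2.45 on set 19-20. In empty-virus cells it read 3.09, 0.60, 1.44 and 2.20 on set 13-14, and 5.40, 3.83, 5.23 and 5.03 on set 15-16. Within each construct the sets did not overlap. Within a set the SD was 0.08 (17-18) and 0.80 (19-20) for HDAC7 DP, and 1.06 (13-14) and 0.71 (15-16) for the empty virus.

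Il2rb split along the same sets. In HDAC7 DP cells it read 2.01, 2.24, 1.59 and 0.87 on set 17-18, and 0.63, 0.55, 0.43 and 0.12 on set 19-20. In empty-virus cells it read 1.07, 1.43, 0.73 and 0.62 on set 13-14, and 1.84, 2.60, 2.98 and 2.36 on set 15-16. Again the sets of a construct did not overlap, and both genes ranked the sets in the same order, 15-16 highest, then 17-18, 13-14 and 19-20. Il2ra was higher on the same set within each construct, by a smaller amount, and its sets overlapped: its set means were 0.09 and -0.03 in HDAC7 DP cells (17-18 and 19-20), and -0.07 and 0.18 in empty-virus cells (13-14 and 15-16).

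**Figure D2:**
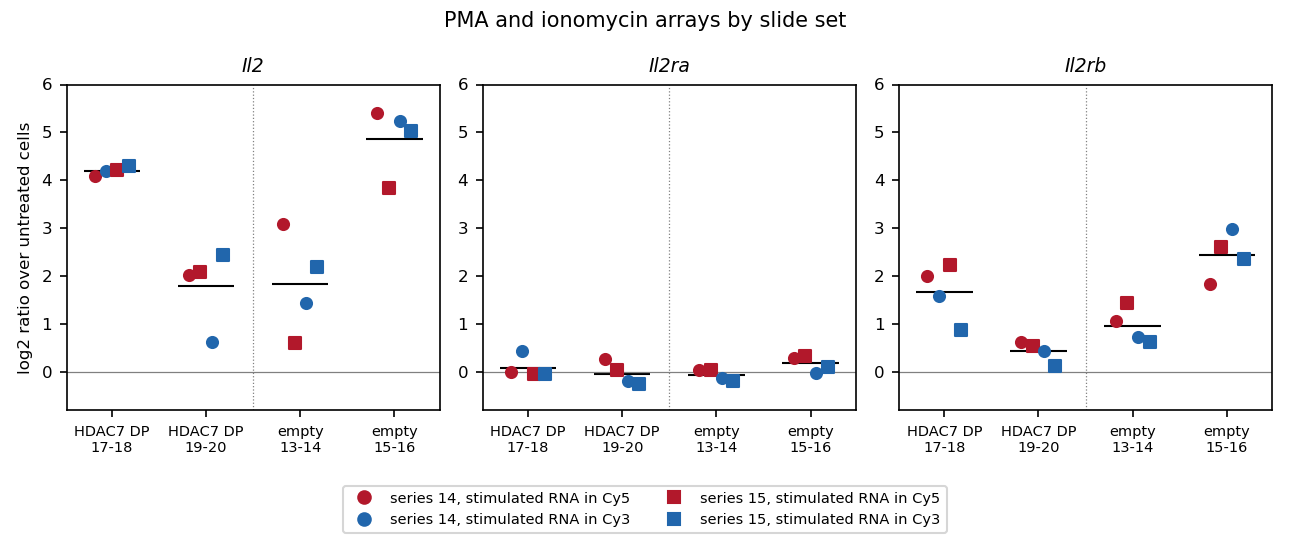
Log2 ratio over untreated cells of Il2, Il2ra and Il2rb on the 16 PMA/ionomycin arrays, by construct and slide set. Colour gives the dye of the stimulated RNA, shape the slide series, and the line the mean of 4 arrays. Il2 and Il2rb were high on sets 17-18 and 15-16 and low on sets 19-20 and 13-14, while Il2ra stayed near 0 on all sets.

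Some activation genes ranked the sets as Il2 and Il2rb did and others did not. Egr2, another early growth response factor, averaged 4.03 and 2.29 on the HDAC7 DP sets 17-18 and 19-20, and 2.91 and 5.04 on the empty-virus sets 13-14 and 15-16, the order of Il2. The means of Nfkbia, which encodes an inhibitor of NF-kappaB, were 2.06 and 1.73 in HDAC7 DP cells and 1.93 and 2.58 in empty-virus cells, and Rel, Fos, Nfatc1 and the chemokine gene Ccl1 gave this order too. Egr1, an early growth response factor that also binds the Il2 promoter, averaged 4.31 and 2.50 on the HDAC7 DP sets 17-18 and 19-20, and 2.17 and 3.95 on the empty-virus sets 13-14 and 15-16, so its high sets were those of Il2 but in another order. Nr4a1 averaged 2.80 and 0.97 in HDAC7 DP cells, and 3.67 and 4.92 in empty-virus cells in the same order of sets. Tnf, a cytokine of early activation, averaged 1.81 and 2.30 in HDAC7 DP cells, and 2.53 and 3.21 in empty-virus cells, so with HDAC7 DP its lower mean fell on the set where Il2 was high. Hdac7 ran from 0.04 to 4.81 on set 17-18 and from -0.01 to 3.99 on set 19-20, so each HDAC7 DP set held arrays near 0 and arrays far above it. Cd69, an early surface marker of activation, averaged 0.88 and 1.21 in HDAC7 DP cells, and 0.96 and 0.04 in empty-virus cells. Irf4, Pdcd1, Cd28 and Jun departed from the order of Il2 too. Irf4 means were 1.38 (17-18), 0.76 (19-20), 2.88 (13-14) and 4.02 (15-16). Listed by set likewise, Pdcd1 gave 0.53, -0.11, 2.25 and 2.85, Cd28 -0.22, -0.16, 1.75 and 1.15, Jun 0.33, 0.17, 0.13 and 0.45. For Irf4, Pdcd1 and Cd28 both empty-virus means exceeded both HDAC7 DP means. For Jun the lowest mean fell on set 13-14.

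The spread of all probes on an array moved with Il2 as well. The SD over all probes averaged 0.55 and 0.41 on the HDAC7 DP sets 17-18 and 19-20, and 0.39 and 0.58 on the empty-virus sets 13-14 and 15-16. Over the 16 stimulated arrays, which share slide sets, Pearson's r was 0.72 between Il2 and Il2rb (0.75 within HDAC7 DP and 0.73 within the empty virus, 8 arrays each), 0.42 between Il2 and Il2ra (0.31 and 0.53 within these constructs), 0.44 between Il2rb and Il2ra, 0.80 between Il2 and the array SD and 0.76 between Il2rb and the array SD. The part of the array spread in the set difference was not tested.

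Leaving out a set moved the comparison of constructs from one sign to the other. The Il2 difference, HDAC7 DP minus empty virus, was -1.88 without set 13-14, 1.16 without 15-16, -1.56 without 17-18 and 0.84 without 19-20, none called (adjusted p 0.107 to 1 over all 30 alternatives). For Il2rb the differences were -1.39, 0.09, -1.27 and -0.03 in the same order, and the first of these was called (adjusted p = 0.0388; 0.0388 to 1 over its 30 alternatives). The calls of Il2 and Il2rb against the unstimulated empty virus held without each set in turn and with the slides of a set averaged, where their adjusted p ran from 0.0122 to 0.0448. Their size did depend on the set: with the empty virus the rise of Il2 was 4.89 without set 13-14 and 1.84 without 15-16, and that of Il2rb 2.54 and 1.06. With HDAC7 DP the rise of Il2 was 1.80 without set 17-18 and 4.21 without 19-20, and that of Il2rb 0.53 and 1.77. Within slide series 14 and 15 taken alone, Il2 rose by 3.78 and 2.96 with the empty virus and by 2.72 and 3.30 with HDAC7 DP.

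Regulators of the Il2 promoter were called in part. In stimulated against unstimulated empty-virus cells, 13 of the 20 measured regulators rose, 1 fell and 6 were not called, with a median log2 change of 0.95, beside -0.01 over all probes. Nab2, a corepressor of EGR factors, rose by 4.04, Egr1 by 2.79, the AP-1 subunit Junb by 2.35 and the NF-kappaB subunit Rel by 2.25 (adjusted p at most 8.54e-05). With HDAC7 DP 11 rose, 1 fell and 8 were not called (median 0.62), led by Egr1 at 3.14 and the AP-1 subunit Fosl1 at 2.33. Between the stimulated groups 2 were called, both lower with HDAC7 DP: Nab2 (-1.92, adjusted p = 0.00303) and Ikzf1 (-1.07, adjusted p = 2.88e-05), the gene of Ikaros, a repressor of Il2. With the slides of a set averaged, 0 of all probes were called between the stimulated groups, in place of 271. Calls between these groups therefore count arrays of the same slide set as separate.

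Cytokine genes other than Il2 rose in part. Of 15 measured, 7 rose and 0 fell with the empty virus (median 0.48), among them Tnf (3.15), the growth factor Il3 (2.61), the type 2 cytokine Il13 (2.44) and Lta, which encodes lymphotoxin alpha (2.34). With HDAC7 DP 5 rose and 0 fell (median 0.14), Tnf by 2.33 and Il3 by 2.30. Between the stimulated groups Lta (-1.59, adjusted p = 0.00536), its partner Ltb (-1.59, adjusted p = 0.0024) and Tnf (-0.81, adjusted p = 0.0285) were lower with HDAC7 DP, and the other 12 were not called. None of these differences was called with the slides of a set averaged. Of the 9 measured genes of other gamma chain cytokines and their receptors, Il4 and Il15ra rose in both stimulated groups (1.00 and 0.43 with the empty virus) and 7 were not called.

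Downstream of the receptor the feedback inhibitors had the largest rises of the signalling list. Of 16 measured signalling genes, 2 rose and 1 fell with PMA/ionomycin in empty-virus cells (median -0.02): Cish and Socs1, STAT5-induced inhibitors of cytokine signalling, rose by 2.99 (SE 0.34) and 2.86 (SE 0.23), and the adaptor gene Grb2 fell by 0.52. With HDAC7 DP 2 rose and 3 fell, Cish rising by 1.57 and Socs1 by 1.36. Set against the stimulated empty virus, Socs1 (-1.50, adjusted p = 8.51e-05), Stat5a (-0.66, adjusted p = 0.0149), a STAT5 gene itself, and the PI3-kinase gene Pik3cd (-0.46, adjusted p = 0.0098) were lower with HDAC7 DP, and 13 of the 16 were not called. These calls too were lost with the slides of a set averaged. Of the 19 measured STAT5 target genes, 7 rose and 2 fell in each stimulated group against the unstimulated empty virus, with medians of 0.04 for the empty virus and 0.06 for HDAC7 DP.

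With HDAC7-VP16 the beta chain was the 1 member called. Il2rb lay at 0.05, 0.45 and 1.44 on the 10 HDAC7-VP16 arrays, all above untreated cells, against -0.85, -0.05 and 0.44 on the 12 empty-virus arrays. The groups overlapped, and the rise was 1.69-fold (0.75, SE 0.12, adjusted p = 0.000726). Il2 lay at -0.58, 0.03 and 0.30 with HDAC7-VP16, against -0.21, -0.03 and 0.23 with the empty virus, a difference of 0.02 (interval -0.15 to 0.20, adjusted p = 0.961). Il2ra lay at -0.61, 0.24 and 0.66, against -0.32, 0.12 and 0.31, a difference of 0.09 (interval -0.13 to 0.31, adjusted p = 0.826). Of all probes 2.72% were called, against 1 of the 3 members.

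The Il2rb ratios depended on the dye of the test RNA in both groups. With HDAC7-VP16 the mean was 1.06 on the 5 arrays with test RNA in Cy5 and 0.26 on the 5 in Cy3, against 0.20 and -0.39 with the empty virus on 6 arrays each. The fit carries a dye term, and both orientations gave a higher mean with HDAC7-VP16. On slide series 15 alone the difference was 0.94 (adjusted p = 0.00011) and on series 14 alone 0.51 (adjusted p = 0.463), the only 1 of 35 alternatives in which the call was lost (adjusted p 9.52e-05 to 0.463). Few probes of any gene were called on series 14 alone, 7 in all, against 703 on series 15 alone. Without replicate 1, whose labels conflict, Il2rb differed by 0.76 (adjusted p = 0.00147) and Il2 by 0.09 (adjusted p = 0.683).

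Pathway genes were called in both directions with HDAC7-VP16, where 2.72% of all probes were called. Of the 16 signalling genes Grb2 (0.66) and Pik3cd (0.38) rose and 0 fell, and of the 19 STAT5 targets the survival gene Bcl2 rose (0.86) and the inhibitor Socs2 fell by 0.95. Among the 20 regulators of the Il2 promoter 2 rose and 3 fell: Ikzf1 rose by 1.11, while Egr1 fell by 1.35 and the AP-1 subunits Jund and Fosl2 fell by 0.99 and 0.65. None of the 15 other cytokine genes and none of the 9 gamma chain genes was called.

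MEF2D-VP16 and Nur77 share the set of 4 empty-virus arrays as control and are given side by side. With MEF2D-VP16 Il2rb read 0.11, 0.53, 0.49 and 0.35, with Nur77 0.10, 0.11, -0.44 and -0.09, and with the empty virus 0.03, 0.18, -0.23 and -0.60. The MEF2D-VP16 arrays were all above untreated cells, but the lowest lay inside the empty-virus range. The difference was 0.53 with MEF2D-VP16 (SE 0.17, interval 0.14 to 0.92, adjusted p = 0.0848) and 0.07 with Nur77 (SE 0.13, interval -0.21 to 0.36, adjusted p = 0.822), neither called. The MEF2D-VP16 value was called in 3 of 15 alternatives (adjusted p 0.0323 to 0.443), one of them without replicate 1, its lowest array (0.67, adjusted p = 0.0323).

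Il2 read -0.12, 0.11, -0.04 and -0.10 with MEF2D-VP16, 0.02, -0.54, -0.23 and 0.02 with Nur77, and 0.22, 0.24, 0.04 and -0.59 with the empty virus. All groups overlapped, with differences of -0.01 for MEF2D-VP16 (interval -0.41 to 0.39) and -0.16 for Nur77 (interval -0.59 to 0.27). Il2ra read 0.02, 0.47, 0.16 and -0.11 with MEF2D-VP16, -0.28, -0.69, 0.75 and 0.34 with Nur77, and -0.40, -0.46, 0.54 and 0.26 with the empty virus. With Nur77 and the empty virus Il2ra followed the dye: both Cy5 arrays of each group were below 0 and both Cy3 arrays above it. Its differences were 0.15 with MEF2D-VP16 (interval -0.28 to 0.57) and 0.04 with Nur77 (interval -0.27 to 0.36). Thus 0 of the 3 members were called with either construct, against 12.6% of all probes with MEF2D-VP16 (limma, 4005 probes at an unadjusted p under 0.05, Il2rb among them) and 6.91% with Nur77 (3214 such probes, no member among them).

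With MEF2D-VP16, 5 of 16 signalling genes rose and 1 fell (median 0.36, beside -0.00 over all probes), with Grb2 at 1.29, Jak3, the kinase bound to the gamma chain, at 1.22, Cish at 0.92 and Stat3 at 0.61. Among other gamma chain genes Il15, whose product also signals through the beta chain, rose by 1.23, and Il9r rose by 0.53. With Nur77 2 signalling genes rose and 2 fell, with Stat3 at 0.91 and Cish at -0.67, and 0 of 19 STAT5 targets rose while 4 fell (Socs2 by 1.42, Bcl2 by 0.99, Ccnd2 by 0.75 and Cish by 0.67).

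For the empty virus itself no member was called against untreated cells. On the set of 12 arrays the ratios averaged -0.01 for Il2, 0.06 for Il2ra and -0.10 for Il2rb (SD 0.13, 0.21 and 0.39), and on the set of 4 arrays -0.02, -0.01 and -0.16 (SD 0.39, 0.49 and 0.34). None was called, against 1.97% of all probes on the set of 12 (1968 at an unadjusted p under 0.05) and 5.72% on the set of 4 (3414 such probes), and no member was among them. With the sign of replicates 3 and 9 turned, 0 of all probes were called on the set of 12, in place of 325. Ordered by mean ratio over untreated cells, Il2 ran from the stimulated empty virus (3.35) and stimulated HDAC7 DP (2.99) to HDAC7-VP16 at 0.01 and the others, and neighbours in that order overlapped except across the step from 2.99 to 0.01. For Il2rb the order was stimulated empty virus (1.71), stimulated HDAC7 DP (1.06), HDAC7-VP16 (0.66), MEF2D-VP16 (0.37), Nur77 (-0.08) and the empty-virus sets, with MEF2D-VP16 and Nur77 touching but not overlapping. For Il2ra all neighbours overlapped, over means of -0.01 to 0.15.

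In the thymus the alpha chain separated the genotypes. Il2ra was 1.84-fold higher in mhc -/- than in DO11.10 thymocytes. The 6 arrays gave log2 ratios of DO11.10 over mhc -/- of -1.10, -0.86 and -0.73 (lowest, median and highest), all below 0, with a mean of -0.88 (SE 0.06, adjusted p = 2.76e-05). That the ratio runs this way is likely, not stated: B2m, the light chain of MHC class I, stood at 3.26 and H2-Ab1, a class II chain, at 2.42, and Cd5 and Cd69, surface genes raised by selection, at 3.77 and 2.13, all positive. The dyes were balanced, with Il2ra at -0.92 and -0.84 in the 2 orientations (3 arrays each), and the call held in all 11 alternatives. Whether the 2 sources of thymocytes were matched for the sex of the mice was not tested.

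Il2 lay at -0.26, 0.00 and 0.12 in DO11.10 over mhc -/- thymocytes (mean -0.03, interval -0.17 to 0.11) and Il2rb at -0.35, -0.05 and 0.13 (mean -0.08, interval -0.22 to 0.07), and neither was called. So 1 of the 3 members was called, against 36.3% of all probes, a share of the same size. Genes of early thymocytes moved in both directions. Of 6 measured double-negative markers besides Il2ra, Ptcra, the pre-T cell receptor alpha gene (-1.33), and Notch3 (-0.43) were higher in mhc -/- thymocytes, while Cd44 (1.36) and Dtx1 (0.34) were higher in DO11.10 thymocytes. Of 7 double-positive markers 3 were higher in mhc -/- thymocytes (Rag2 at -1.14, Rag1 at -0.50 and Dntt) and 0 in DO11.10 thymocytes. Of 8 mature markers 6 were higher in DO11.10 thymocytes and 1 in mhc -/- thymocytes, but Cd5 and Cd69 are among them and also set the direction of the ratio, and of 6 thymic epithelial markers 4 and 1. The part of these cell types in the Il2ra ratio was not tested.

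Among other pathway genes, the inhibitors Socs3 (-1.62) and Socs1 (-0.88) and Ctla4, an inhibitory receptor of regulatory T cells (-1.32), were also higher in mhc -/- thymocytes, while Stat3 (2.50), Jak3 (1.74) and Pik3cd (1.71) were higher in DO11.10 thymocytes. Of the 7 measured regulatory T cell genes, Ctla4 was the 1 called higher in mhc -/- thymocytes. Of the others, 2 were higher in DO11.10 thymocytes and 4 were not called (median of the list 0.07). In all, 6 of 16 signalling genes were higher in DO11.10 thymocytes and 3 in mhc -/- thymocytes, with a median ratio of 0.16 beside -0.01 over all probes.

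After peptide injection the mean ratio of the ligand was highest at 3 h and that of the beta chain at 12 h. The changes between times, given below, were not called for either gene. Il2 lay at 0.14, 0.75 and 1.21 at 3 h, at 0.21, 0.42 and 0.83 at 6 h, and at 0.07, 0.14 and 0.23 at 12 h (lowest, median and highest over 6 arrays each, relative to uninjected thymocytes). All 18 arrays were above 0, and the highest arrays were at 3 h. The mean ratios were 0.68 (SE 0.14, adjusted p = 0.0589), 0.47 (SE 0.09, adjusted p = 0.0285) and 0.14 (SE 0.06, adjusted p = 0.231), so that Il2 rose at 6 h, by 1.39-fold, and missed the threshold at 3 h and 12 h.

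Il2ra lay at 0.03, 0.62 and 1.02 at 3 h, at 0.14, 0.31 and 0.64 at 6 h, and at -0.17, 0.02 and 0.24 at 12 h. All arrays were above 0 at 3 h and 6 h and 3 of 6 at 12 h. Its means were 0.59 (SE 0.12, adjusted p = 0.0558), 0.34 (SE 0.08, adjusted p = 0.0568) and 0.02 (SE 0.06, adjusted p = 0.901), none called.

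Il2rb lay at 0.12, 0.22 and 0.34 at 3 h, at 0.71, 1.01 and 1.41 at 6 h, and at 0.88, 1.18 and 2.71 at 12 h, above 0 on all 18 arrays. The 3 h and 6 h arrays did not overlap. The means were 0.23 (SE 0.06, adjusted p = 0.131), 1.04 (SE 0.08, adjusted p = 0.000472) and 1.44 (SE 0.25, adjusted p = 0.0379), a rise of 2.06-fold at 6 h and 2.71-fold at 12 h. In counts, 0 of the 3 members were called at 3 h against 2.71% of all probes (2678 probes at an unadjusted p under 0.05, all 3 members among them), 2 at 6 h against 4.57%, and 1 at 12 h against 3.38%.

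**Figure D3:**
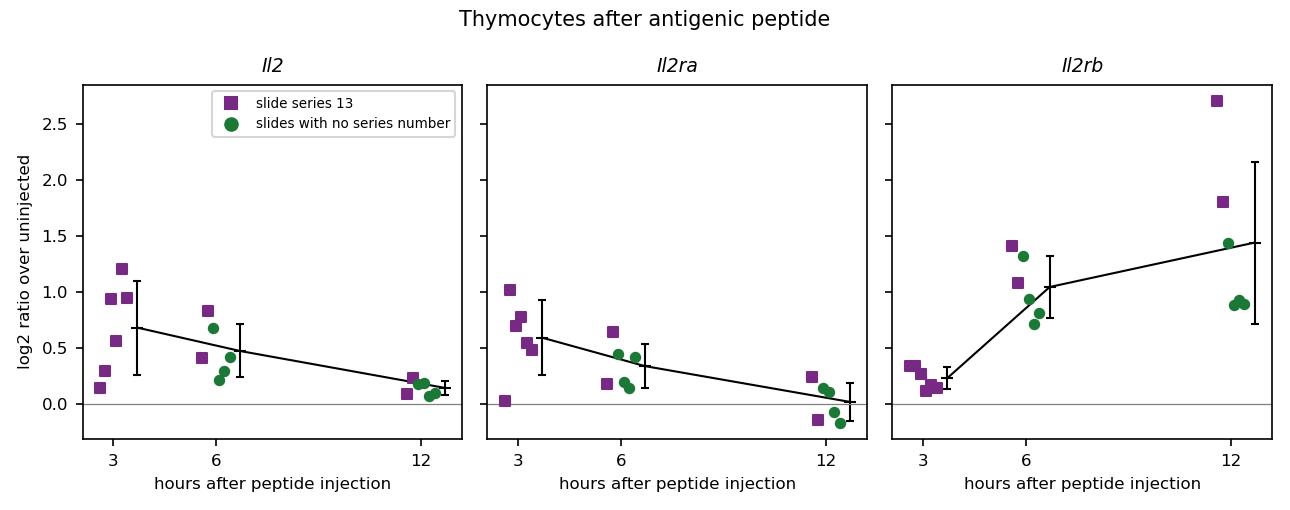
Log2 ratio over uninjected DO11.10 thymocytes of Il2, Il2ra and Il2rb (vertical axis) at 3 h, 6 h and 12 h after peptide injection (horizontal axis). Points are arrays, squares on slide series 13 and circles on slides with no series number, and the line joins means with 1 SD. Means of Il2 and Il2ra were highest at 3 h and those of Il2rb at 12 h, where its series 13 arrays (2.71 and 1.80) lay above the other 4.

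The differences between times were tested directly, and 0 members were called in either step. In 6 h minus 3 h, Il2rb differed by 0.82 (SE 0.23, interval 0.33 to 1.31, unadjusted p = 0.00263, adjusted p = 0.479), Il2 by -0.21 (interval -0.54 to 0.12) and Il2ra by -0.26 (interval -0.55 to 0.04), against 0.0121% of all probes called (854 at an unadjusted p under 0.05, Il2rb among them). In 12 h minus 6 h, Il2rb differed by 0.40 (interval -0.09 to 0.89, adjusted p = 0.456), Il2 by -0.33 (adjusted p = 0.305) and Il2ra by -0.32 (adjusted p = 0.269), against 3.18% (2676 such probes, Il2 and Il2ra among them).

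Slide series differed between the times. All 3 h arrays were on slide series 13, but 2 of 6 at 6 h and 2 of 6 at 12 h, and the slide names 5 to 8 of that series each stand in titles of 2 times. Il2rb averaged 2.26 on the 2 series 13 arrays at 12 h and 1.03 on the other 4, and 1.25 and 0.94 at 6 h. On the slides with no series number alone Il2rb was called at 6 h (0.94, adjusted p = 0.000981) and at 12 h (1.03, adjusted p = 0.000537), and 12 h minus 6 h was 0.09 there, against 1.01 on series 13. On series 13 alone, 6 h minus 3 h was 1.02 for Il2rb and was not called (adjusted p = 0.291). With the series as a block it was 1.33 and was called (adjusted p = 0.00434; 0.00434 to 0.913 over its 19 alternatives).

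Single arrays decided some of these calls. Without replicate 2, 3, 5 or 6 of the 6 h arrays Il2 was no longer called (0.39 to 0.53, adjusted p 0.0551 to 0.11), and without replicate 3, 4, 5 or 6 of the 12 h arrays Il2rb was no longer called (1.50 to 1.64, adjusted p 0.0668 to 0.137). At 3 h Il2 was called without replicate 2 (0.81, adjusted p = 0.0286) and Il2ra without replicate 1 (0.71, adjusted p = 0.0251).

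Some STAT5 targets rose with peptide at each time. Of the 19 measured, 8 rose and 0 fell at 3 h (median 0.41), 9 rose and 0 fell at 6 h (median 0.37), and 4 rose and 1 fell at 12 h (median 0.15), beside -0.00, 0.01 and 0.01 over all probes. The proliferation gene Myc (1.13), the granule protease gene Gzmb (0.98) and the kinase gene Pim1 (0.84) led at 3 h, and Gzmb (1.49), Socs3 (1.20) and Socs1 (0.95) at 6 h. Of the 16 signalling genes 2 rose at 3 h, 5 rose and 1 fell at 6 h, and 1 rose at 12 h, Socs3 reaching 1.56. Il15ra, the alpha chain that pairs with Il2rb to bind interleukin 15, rose by 0.49 at 3 h and 0.57 at 6 h.

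Of the 20 regulators of the Il2 promoter, 8 rose, 0 fell and 12 were not called at 3 h (median 0.18), with Egr1 at 1.91, the AP-1 subunit Fos at 1.55 and the NF-kappaB subunits Nfkb2 and Rel at 1.51 and 1.47. At 6 h 9 rose and 1 fell, and at 12 h 5 rose and 0 fell. Fos was lower at 12 h than at 6 h (-0.97, adjusted p = 0.0241). Tnfrsf4 and Tnfrsf18, the genes of OX40 and GITR that regulatory and activated T cells share, rose at all times (2.47, 3.00 and 3.08 for Tnfrsf4), while the other 5 of 7 measured regulatory T cell genes were not called at any time.

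Markers of other cells were counted beside the Il2rb rise, since natural killer cells also carry the beta chain. Of 6 natural killer markers 0 were called at 3 h (range -0.11 to 0.51), 1 was lower at 6 h (Klrd1, -0.29; range -0.29 to 0.25) and 1 was higher at 12 h (Nkg7, 0.38; range -0.11 to 0.38). Their medians were -0.05, 0.14 and 0.30, and 5 of 6 lay above 0 at 12 h, the time of the highest Il2rb mean. In 12 h minus 6 h, 1 of the 6 was called higher (Klrd1, 0.65). Of 6 thymic epithelial markers 3 were called lower at 3 h, 4 at 6 h and 2 at 12 h, with medians of -0.68, -0.51 and 0.01 and the cortical chemokine gene Ccl25 at -1.55, -1.41 and -1.34. At 12 h 3 of the 6 lay above 0, and in 12 h minus 6 h Krt8 (1.40) and Epcam (0.55) were called higher. Of 7 double-positive markers 0, 1 and 0 were lower at these times, with medians of -0.25, -0.25 and -0.45, and 0 were higher. Their part in the ratios of the members was not tested.

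**Figure D4:**
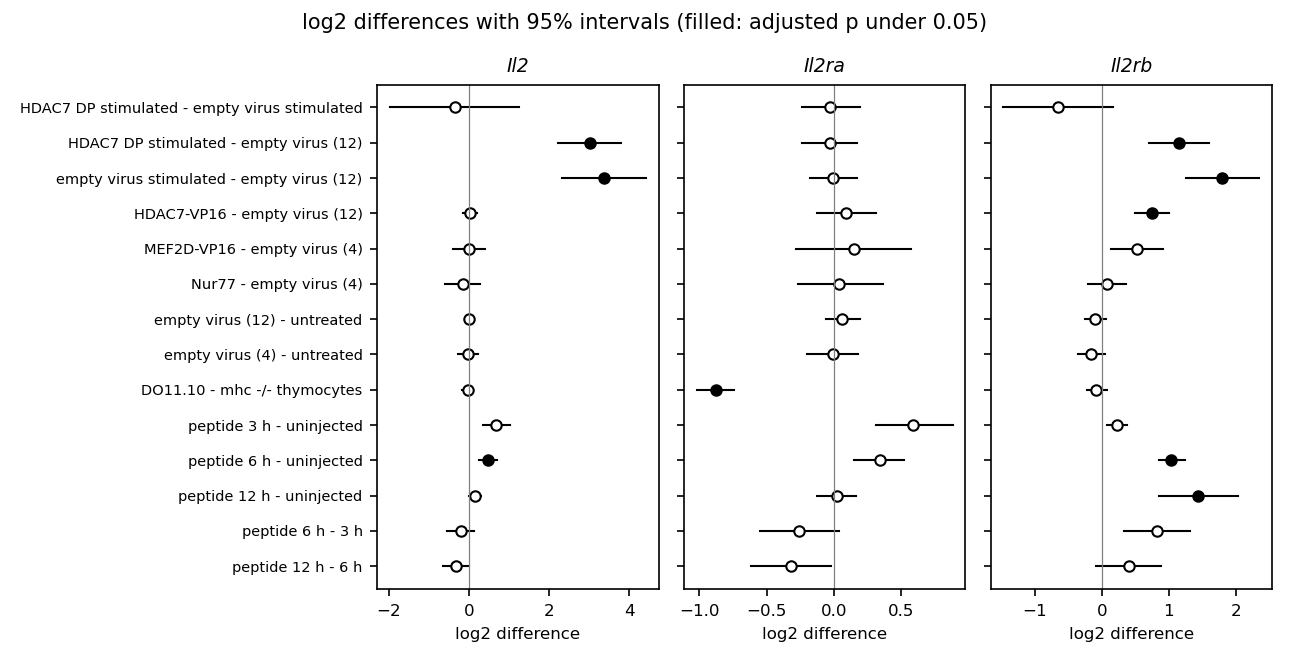
Log2 difference with its 95% interval (horizontal axes) of Il2, Il2ra and Il2rb in 14 comparisons (rows), each named as first group minus second. Filled points have an adjusted p under 0.05. Il2 and Il2rb were called in both PMA/ionomycin comparisons with the unstimulated empty virus, Il2rb also with HDAC7-VP16 and 6 h and 12 h after peptide, Il2 at 6 h, and Il2ra between the thymocyte genotypes.

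Across the 11 group means each gene had different neighbours. Of the 1998 candidate probes, which had 1 symbol and a mean of at least 1 in size in some group, the ones most like Il2 by Pearson's r were Fasl, the gene of a death ligand of activated T cells (0.995), the RANK ligand gene Tnfsf11 (0.984), Il3 (0.983), Fer1l4 (0.976) and Klf10 (0.974). After PMA/ionomycin Fasl averaged 2.87 in HDAC7 DP cells and 3.04 in empty-virus cells, and at most 0.48 in any other group. It was chosen for its likeness to Il2 over these same means, so this pattern follows from the choice. Over the 16 stimulated arrays alone, which follow the slide sets, the list differed, with Tymp (0.944), Slc25a25 (0.927), Wwp2 (0.927), the AP-1 subunit Fosl2 (0.920) and Sytl1 (0.912).

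Il2rb was most like Hmox1, the gene of heme oxygenase 1 (0.834), Ms4a8a (0.825), Socs1 (0.817), Cish (0.804) and Rilpl2 (0.786), with lower values than those of Il2. Both STAT5-induced inhibitors, Socs1 and Cish, had high means after PMA/ionomycin, 1.42 and 1.50 with HDAC7 DP and 2.92 each with the empty virus, but Cish averaged -0.13 with HDAC7-VP16, where Il2rb averaged 0.66. Il2ra was most like Fgf13 (0.946), Kdm5d (0.937), Pisd-ps3 (0.932), Mapk6 (0.925) and 2610035D17Rik (0.919). All had their lowest mean in DO11.10 over mhc -/- thymocytes, at -1.34, -1.25, -2.88, -1.46 and -1.71. They were chosen for likeness to Il2ra over these same means, and its own lowest mean is in that group. These correlations over 11 points describe the groups, which share partner RNAs and rest on the few groups with large values.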

How the data were processed

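Per the labels' protocols, acid phenol with guanidinium gave total RNA, and Cy3 or Cy5 was coupled to its aminoallyl-dUTP cDNA. The authors deposited 1 signed ratio value per probe and array, read here as log2. Not given in the sources used here are the scanner, normalization, log base and direction, and base 2 was assumed. Dyes were read from titles, since both channels' label fields read Cy3. All columns were mapped to samples (0 unmapped). Each array was centred on its median (-0.021 to 0.023 before centring). The array's named probes were used (14551 with 1 symbol, 6 with several, 1906 with none), and 0 values were missing. No pair of arrays held identical values. Differences were fitted across all 16463 probes with limma 3.58.1 (statmod 1.5.0, R 4.3.3), with a term for dye orientation, over the groups compared, and p-values were adjusted over all probes by Benjamini-Hochberg at 0.05. The procedure was tested on simulated data in which arrays were independent, without slide sets or dye effects. That simulation cannot show how shared slide sets affect the p-values. Signal over background was not used, and the number of arrays limits the precision. The members and gene lists were chosen with earlier results of these data known. Genes named from a list are the up to 4 called with the largest change, and genes most like a member the 5 with the highest Pearson's r. Alternatives covered scaling, dye term, slide series, slide sets, control arrays and left-out arrays.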

Additional observations from a re-analysis of the deposited data

Results flagged for a closer look

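Of 30 sets of values examined, 1 held an array far from the others of its group. Il2 read -0.58 on HDAC7-VP16 replicate 1, while the other 9 of the 10 HDAC7-VP16 arrays lay between -0.09 and 0.30. The gap to its neighbour was 0.557 of the group's range. Chance gives such an array in about 1 of 20 groups. It is the array whose title names HDAC7-VP16 and whose source name gives the empty virus. Without it the difference of HDAC7-VP16 from the empty virus was 0.09 for Il2 (adjusted p = 0.683) and 0.76 for Il2rb (adjusted p = 0.00147).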

How the results depend on the processing

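No value of a member that was called changed sign under any alternative run. Leaving out a slide set, and leaving out single arrays in groups of more than 5, were chosen after seeing the data. The number of members called differed from the reported one as follows. With HDAC7-VP16 it was 0, in place of 1, on slide series 14 alone, where 7 of all probes were called. Between HDAC7 DP and the empty virus under PMA/ionomycin it was 1 without slide set 13-14, in place of 0. With MEF2D-VP16 it was 1 against all 16 empty-virus arrays (Il2rb 0.48, adjusted p = 0.0402), 1 with untreated cells as the control (0.37, adjusted p = 0.0369) and 0 to 1 with 1 array left out, in place of 0. At 3 h after peptide it was 1 with no dye term (Il2ra, adjusted p = 0.0439), 1 with all 11 groups in one fit (Il2ra, adjusted p = 0.000501) and 0 to 1 with 1 array left out, in place of 0. At 6 h it was 1 with all 11 groups in one fit, where Il2 had an adjusted p of 0.673, and 1 to 2 with 1 array left out, in place of 2. With arrays scaled to the same spread Il2ra was also called at 6 h (0.41, adjusted p = 0.0416). At 12 h it was 0 to 1 with 1 array left out, in place of 1. For 6 h minus 3 h it was 1 with arrays scaled (Il2rb 1.00, adjusted p = 0.014) and 1 when slide series was a block (1.33, adjusted p = 0.00434), in place of 0. The cause was not tested for any of these. No paired analysis was possible because the labels give no replicate numbers: replicates are numbered in accession order and slide numbers name slides.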
